A study of Homo sapiens with 4 samples.

Results

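The interferon-stimulated genes (ISGs) were described as a set of 41 genes that cells transcribe when interferon reaches its receptor. Probe sets annotated with only 1 of the 41 symbols were taken, and where a gene had several, the one with the highest mean over the 4 arrays. This gave values for 39 of the 41 genes, out of 18417 genes with such a probe set on the array, and 29 of the 39 had a mean at or above the floor for low signal, a log2 intensity of 4.84. STAT2 had no such probe set and is not analysed here. GBP1, a guanylate-binding GTPase, was present only on a probe set shared with GBP1P1 and GBP3 and is kept out of the counts.

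The cells were Caco-2, an established human colorectal adenocarcinoma line that acquires features of absorptive enterocytes after confluence. They were grown on collagen-coated Transwell inserts, porous membranes with separate apical and basolateral compartments, or in regular 6-well plates, and exposed for 3 h to 2 mM cholate, a primary bile acid given as its sodium salt, or to vehicle. The 4 groups were Transwell with cholate, Transwell with vehicle, plate with cholate and plate with vehicle, with 1 array each, hybridised with RNA pooled from 3 samples. Cholate was dissolved in a salt solution without calcium and given apically on the inserts, and the sources used here do not state what the vehicle was. The labels state 21 days of differentiation for all 4 groups, whereas the growth protocol has plates used 14 days after seeding and inserts 14 to 21 days after seeding. Growth support, collagen coating, culture format and possibly culture age therefore differ together between Transwell and plate and cannot be told apart.

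Interferons of type I and type III bind receptors that activate the kinases JAK1 and TYK2, which phosphorylate transcription factors of the STAT family, among them STAT2. STAT2 and IRF9 are subunits of ISGF3, which binds the interferon-stimulated response element (ISRE) in ISG promoters, while the gamma-activated site (GAS) serves mainly the response to interferon gamma. ISG products degrade or sequester viral RNA, block viral entry, tag proteins with ISG15 and raise the sensitivity of the cell to further interferon. Many ISGs keep a low constitutive expression without added interferon, and gut epithelium responds to type III interferon in particular.

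The motif letters of both elements were looked for in RefSeq promoter windows of build GRCh38.p14, from 250 bases before to 50 after the annotated start, which 33 of the 41 genes had. A gene was counted when any of its windows held the letters. The ISRE core, GAAA followed by any 2 bases and GAAA again, on either strand, was in 25 of the 33 genes (75.8%). Among all 27305 genes with a window the share was 4.38%. GAS letters, TTCNNNGAA, which read alike on both strands, were in 12 of the 33 (36.4%), against 9.38% of all genes. The genes are defined by their response to interferon, so these shares describe the set. The promoters below belong to 7 of the ISGs at least 1.5-fold apart in 1 or more comparisons, and were picked after the values were seen to show genes that differ by support, by cholate or by both. They are written 5′ to 3′ on the strand of the gene, with ISRE letters in capitals (for IRF9, GAS letters).
IFIT1, chr10:89392373-89392642, plus strand: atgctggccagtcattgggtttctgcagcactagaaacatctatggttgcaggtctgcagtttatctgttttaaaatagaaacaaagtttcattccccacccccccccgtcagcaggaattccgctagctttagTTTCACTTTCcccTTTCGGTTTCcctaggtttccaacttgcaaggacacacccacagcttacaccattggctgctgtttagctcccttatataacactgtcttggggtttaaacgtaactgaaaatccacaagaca
IFI6, chr1:27672256-27672368, minus strand: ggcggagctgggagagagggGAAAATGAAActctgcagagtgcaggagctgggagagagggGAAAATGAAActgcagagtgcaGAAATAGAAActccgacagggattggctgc
EPSTI1, chr13:42992242-42992331, minus strand: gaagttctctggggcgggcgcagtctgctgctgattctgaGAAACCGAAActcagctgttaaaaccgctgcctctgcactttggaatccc
IFITM1, chr11:313970-314059, plus strand: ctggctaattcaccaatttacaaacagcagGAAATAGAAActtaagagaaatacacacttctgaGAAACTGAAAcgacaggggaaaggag
IFITM3, chr11:320856-320942, minus strand: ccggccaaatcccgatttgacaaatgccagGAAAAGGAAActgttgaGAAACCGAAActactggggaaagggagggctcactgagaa
HERC5, chr4:88456974-88457074, plus strand: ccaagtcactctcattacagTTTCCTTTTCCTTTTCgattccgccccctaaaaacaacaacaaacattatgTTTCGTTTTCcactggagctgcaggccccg
IRF9, chr14:24161162-24161250, plus strand: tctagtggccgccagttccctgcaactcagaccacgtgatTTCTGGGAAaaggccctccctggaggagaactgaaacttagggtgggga
IFI6 carried its ISRE letters 3 times, in 2 of them with the same 10 letters inside a repeated stretch. In HERC5 the first 2 of 3 matches overlap each other, so they read as 1 run of capitals, and in IFIT1 and HERC5 the letters lie on the opposite strand. GAS letters overlap ISRE letters in EPSTI1, IFITM1, BST2, MX1 and IFI27, and ISRE matches overlap each other also in BST2, IFIH1, ISG15 and TAP1. IRF9, which encodes a DNA-binding subunit of ISGF3, had no ISRE letters in its window. Of the 31 measured genes with a window, the 24 with ISRE letters had a median Transwell minus plate difference of -0.37 log2 in cholate and -0.45 log2 in vehicle. In the 7 without, the same medians were -0.35 and -0.42 log2.

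**Figure D1:**
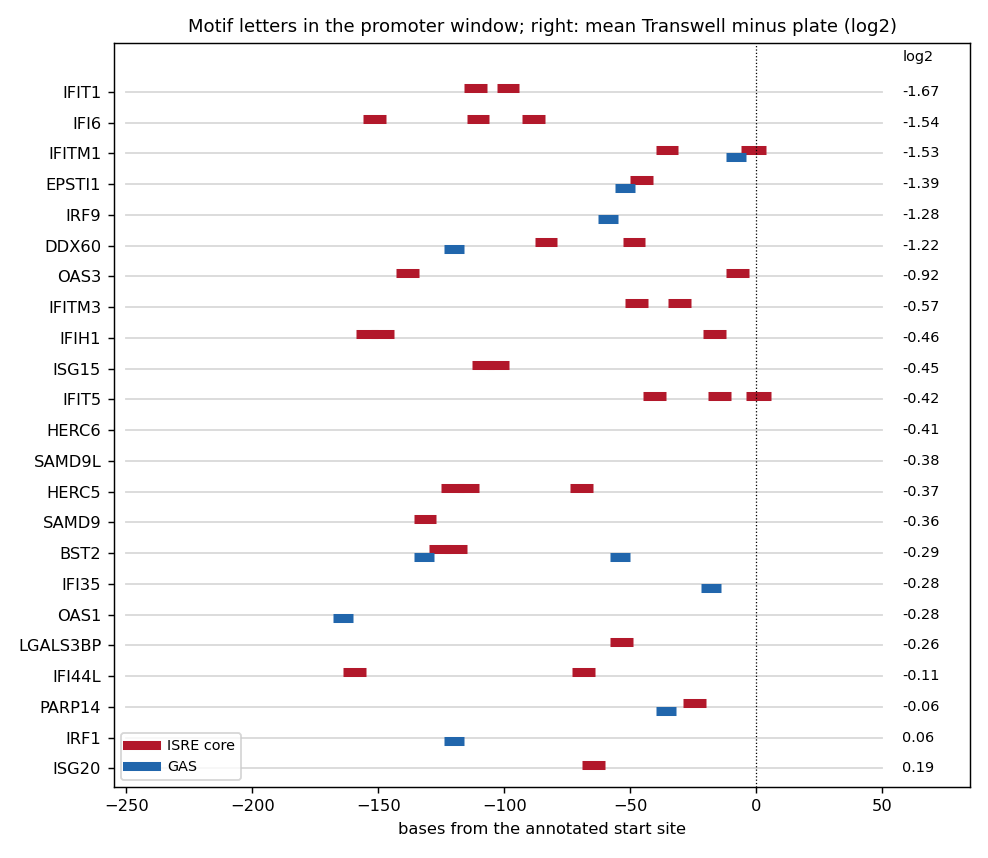
Positions of ISRE and GAS letters in the promoter windows of 23 measured ISGs with 1 RefSeq window each. The x axis is the distance in bases from the annotated start site, each row is a gene, and the numbers at the right are the mean Transwell minus plate difference in log2. ISRE letters lie mostly upstream of the start, where most of the searched window lies, in genes with large and with small differences.

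Values are RMA log2 intensities, so 1 unit is a 2-fold difference, and levels of different probe sets cannot be set against each other. No condition was measured again, so no difference below has a replicate check. The cells carried the markers their label names: 13 of 14 enterocyte and epithelial markers were measured and all 13 lay above the floor, with EPCAM at 12.69 to 12.79 on the 4 arrays. Their summed level was 15.34 and 15.36 log2 on the Transwell arrays and 15.41 and 15.47 on the plate arrays (cholate before vehicle). Single epithelial markers moved with support: CDX2, an intestinal transcription factor, stood at 9.48 and 9.68 on Transwell, against 8.92 and 8.68 on the plate. APOA1, an apolipoprotein of enterocytes, went the other way, with 11.47 and 11.52 on Transwell and 12.26 and 12.09 on the plate. Leukocytes are a common source of ISG RNA. Of 11 measured leukocyte markers 5 lay above the floor (CD14, CD68, CSF1R, CCR7 and CORO1A), but PTPRC, the pan-leukocyte antigen, was at most 3.05. CD68, a lysosomal protein abundant in macrophages, was lower on Transwell, with 8.81 and 8.71 against 9.45 and 9.04 on the plate, whereas CD14 was higher by 0.40 log2 in cholate and 0.12 in vehicle. The summed leukocyte level, which the brightest markers dominate, was 10.19 and 10.06 on Transwell, against 10.37 and 10.17 on the plate. The median leukocyte level went the other way, with 4.96 and 4.75 on Transwell, against 4.72 and 4.67 on the plate. Of the 11 markers, 7 were lower on Transwell in cholate and 4 in vehicle, against 48.4% and 49.7% of all genes. The part of any of these markers in the ISG differences was not tested. In bulk RNA, fewer cells expressing a gene and less RNA of it per cell cannot be told apart.

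The first comparison asked how ISG levels differed between Transwell and plate, within each treatment. Most ISGs had lower signal on Transwell, by up to 3.65-fold (IFI6 in cholate). Over the 39 genes the median Transwell minus plate difference was -0.30 log2 in cholate and -0.44 log2 in vehicle, against 0.01 and 0.00 over all genes. In cholate 33 of the 39 lay below 0, against 48.4% of all genes, and in vehicle 36 of the 39, against 49.7%. In both treatments 31 of 39 were lower, against 32.5% of all genes, while ISG20 alone was higher in both, against 34.2%. Both Transwell arrays lay under both plate arrays in 26 of 39 genes, against 23.6% of all genes. These support differences come from separate pairs of arrays.

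Large differences were also frequent. Of the 29 genes at or above the floor, 7 were at least 1.5-fold lower on Transwell in cholate (3.75% of the 12900 genes above the floor) and 12 in vehicle (3.16%). The 7 were so in both treatments, against 1.84% of genes. At least 2-fold lower in both treatments were 5 of them, IRF9, IFIT1, IFITM1, IFI6 and EPSTI1, against 0.364%. None of the 29 was at least 1.5-fold higher on Transwell, with a background of 4.02% in cholate, 1.93% in vehicle and 1.19% in both.

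**Figure D2:**
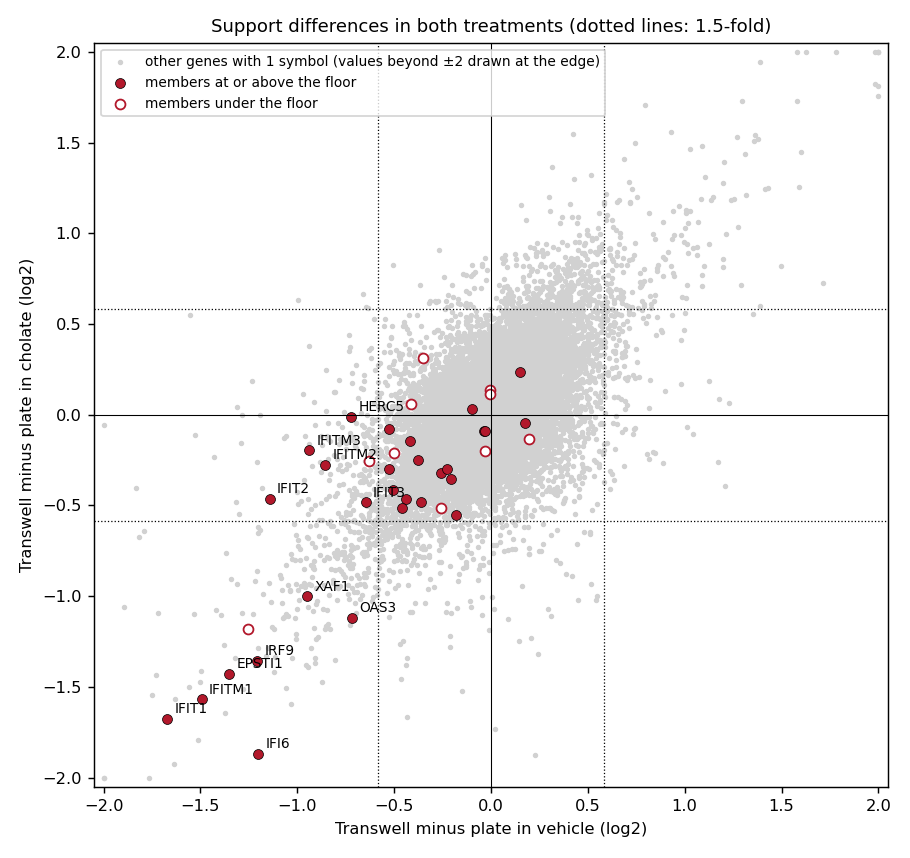
Transwell minus plate difference (log2) of each ISG (red, open where the mean lies under the floor) and of the other genes (grey), in vehicle on the x axis and in cholate on the y axis, with dotted lines at 1.5-fold. Most points lie in the quadrant lower on Transwell in both treatments (31 of 39), with IFI6, IFIT1, IFITM1, EPSTI1 and IRF9 farthest out.

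Among the transcription factors, IRF9 differed most. IRF9 stood at 6.74 on Transwell with cholate and 6.86 with vehicle, against 8.09 on the plate with cholate and 8.07 with vehicle. The 4 values fall into 2 pairs by support, with almost no distance between cholate and vehicle. IRF9 was 2.56-fold lower on Transwell in cholate and 2.31-fold lower in vehicle. IRF7, which drives later interferon production, was lower by less, at -0.25 log2 in cholate and -0.38 in vehicle. IRF1, a factor induced mainly by interferon gamma, stood at 7.80 and 7.88 on Transwell and 7.84 and 7.71 on the plate, so its supports overlap.

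The IFIT proteins bind viral RNA and block its translation, and all 4 measured members were lower on Transwell in both treatments. IFIT1 stood at 6.32 on Transwell with cholate and 7.07 with vehicle, against 8.00 on the plate with cholate and 8.74 with vehicle. IFIT1 was thus 3.19-fold lower on Transwell in cholate and 3.18-fold lower in vehicle, the same difference in both treatments within rounding. IFIT2, a partner of IFIT1 and IFIT3, stood at 5.64 and 5.61 on Transwell, against 6.10 and 6.75 on the plate. IFIT3 stood at 6.57 and 6.81, against 7.05 and 7.46. For both genes the plate vehicle array was the highest, and the difference in vehicle (2.21-fold and 1.57-fold lower) exceeded that in cholate. IFIT5 was at -0.48 log2 in cholate and -0.36 in vehicle.

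The interferon-induced transmembrane proteins IFITM1, IFITM2 and IFITM3 stop enveloped viruses from fusing with cell membranes. IFITM1, found mainly at the cell surface, stood at 6.59 on Transwell with cholate and 6.92 with vehicle, against 8.16 on the plate with cholate and 8.41 with vehicle. This was 2.96-fold lower on Transwell in cholate and 2.82-fold lower in vehicle, with the supports well apart. IFITM2 and IFITM3, which act in endosomes, had another pattern. IFITM2 stood at 7.21 and 7.76 on Transwell and 7.49 and 8.62 on the plate (cholate before vehicle), and IFITM3 at 6.43 and 7.03 on Transwell and 6.62 and 7.97 on the plate. In both, the Transwell vehicle value lay above the plate cholate value, so the supports overlap. Their probe sets may share signal, since the genes are close paralogs. BST2 (tetherin), which holds budding virions at the cell surface, was at -0.32 log2 in cholate and -0.26 in vehicle.

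Among genes of RNA sensing and decay, OAS3 had the largest difference above the floor. OAS3, which makes the oligoadenylates that activate RNase L, stood at 6.73 on Transwell with cholate and 7.22 with vehicle, against 7.85 on the plate with cholate and 7.94 with vehicle. The supports were separate, and the difference was 2.17-fold in cholate and 1.65-fold in vehicle, lower on Transwell. OAS1, among the 5 ISGs with the highest signal, stood at 9.29 and 9.40 on Transwell and 9.43 and 9.82 on the plate. IFIH1 (MDA5), a sensor of long double-stranded RNA, was at -0.41 log2 in cholate and -0.50 in vehicle. ISG20, an RNA exonuclease, was higher on Transwell by 0.23 and 0.15 log2. OASL, which enhances RNA sensing, had values of 4.71 to 5.02, around the floor. DDX60, a helicase linked to RNA sensing, had a mean just under the floor, with 4.03 and 4.24 on Transwell and 5.21 and 5.49 on the plate.

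The ISG15 conjugation genes were all lower on Transwell in both treatments. ISG15, a ubiquitin-like protein, was at -0.46 log2 in cholate and -0.44 in vehicle. HERC5, its main human ligase, stood at 6.00 and 6.24 on Transwell and 6.01 and 6.96 on the plate. The HERC5 difference was therefore -0.01 log2 in cholate and -0.72 log2 in vehicle, with the plate vehicle array alone standing high. USP18, which removes ISG15 and also damps receptor signalling, was at -0.08 and -0.53 log2. HERC6, a relative of HERC5, was at -0.30 and -0.53 log2.

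The other effectors include IFI6, which in cholate differed more between supports than any other ISG. IFI6, an interferon-induced membrane protein that counters apoptosis, stood at 8.48 on Transwell with cholate and 9.63 with vehicle, against 10.35 on the plate with cholate and 10.83 with vehicle. IFI6 was 3.65-fold lower on Transwell in cholate and 2.30-fold lower in vehicle. EPSTI1, named for epithelial and stromal interaction, stood at 6.01 and 6.42 on Transwell and 7.43 and 7.78 on the plate. XAF1, which counters the caspase inhibitor XIAP, stood at 5.08 and 5.21 on Transwell and 6.08 and 6.16 on the plate. In all 3 genes the supports were separate. EPSTI1 was 2.69-fold and 2.55-fold lower on Transwell, and XAF1 2.00-fold and 1.93-fold lower (cholate before vehicle).

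IFI35, PARP14, PARP9, LGALS3BP, TAP1 and IFI27 were each less than 1.5-fold apart between supports. IFI35, an interferon-induced leucine zipper protein, stood at 8.51 and 8.70 on Transwell and 8.87 and 8.91 on the plate. PARP14, an ADP-ribosyltransferase, stood at 9.53 and 9.59 on Transwell and 9.62 and 9.62 on the plate, under 0.1 log2 apart. Its partner PARP9 was at -0.51 log2 in cholate and -0.46 in vehicle. LGALS3BP, a secreted galectin-binding glycoprotein with the highest mean signal of the set, stood at 11.20 and 11.14 on Transwell and 11.50 and 11.37 on the plate. TAP1, which carries peptides to MHC class I, was at 0.03 log2 in cholate and -0.10 in vehicle, and its 3 probe sets held identical values. IFI27, a mitochondrial ISG product, was at -0.55 log2 in cholate and -0.18 in vehicle.

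**Figure D3:**
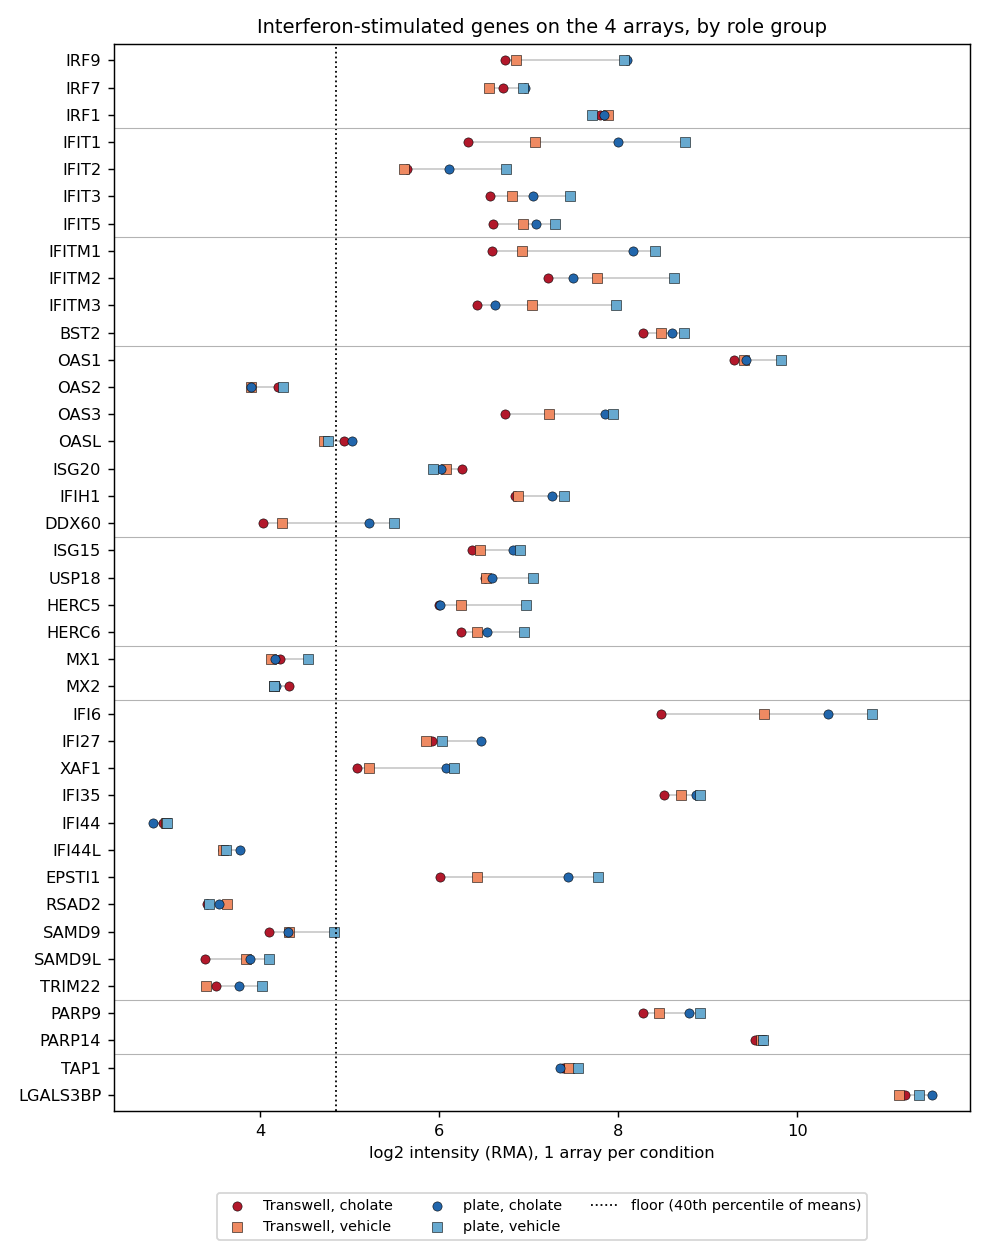
Log2 intensity of the 39 measured ISGs on each of the 4 arrays, by role group, with 1 point per array and the floor of 4.84 drawn as a line. Transwell points lie left of plate points for most genes, and 10 genes have means under the floor.

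The genes with the weakest signal were IFI44, RSAD2, IFI44L, TRIM22 and SAMD9L. IFI44 stood at 2.91 and 2.95 on Transwell and 2.80 and 2.95 on the plate. RSAD2 (viperin), an enzyme that makes a chain-terminating nucleotide, stood at 3.40 and 3.63 on Transwell and 3.53 and 3.43 on the plate. For these classical ISGs the supports overlap. IFI44L stood at 3.58 and 3.58 on Transwell and 3.77 and 3.61 on the plate. TRIM22, a ubiquitin ligase, stood at 3.50 and 3.39, against 3.76 and 4.02 on the plate. SAMD9L, a growth-restraining antiviral factor, stood at 3.37 and 3.84, against 3.89 and 4.10. In these 3 genes both Transwell values lay under both plate values, at signals where differences are compressed. Also under the floor were OAS2, MX1, MX2, SAMD9 and DDX60, and MX1, a dynamin-like GTPase often used as an ISG marker, was at most 4.53. The floor lay between DDX60 (mean 4.74) below and OASL (mean 4.85) above.

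The second comparison asked how ISGs differed between cholate and vehicle on each support. As the vehicle is not stated, cholate and any difference in the solution that carried it cannot be told apart. ISGs were mostly lower in cholate, by less than between supports. The median difference of the 39 genes was -0.13 log2 on Transwell and -0.20 log2 on the plate, against 0.00 and -0.01 over all genes. On Transwell 29 of 39 lay below 0, against 49.8% of all genes, and on the plate also 29, against 52.0%. On both supports 25 of 39 were lower, against 30.2% of all genes. Higher on both were 6 (IRF7, OASL, ISG20, MX2, IFI27 and LGALS3BP), against 28.2%. Both cholate arrays lay under both vehicle arrays in 6 genes (IFITM2, IFITM3, HERC5, IFI44, SAMD9 and TAP1), a share of 6 in 39 beside 13.9% of all genes.

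At least 1.5-fold lower in cholate were 3 of 29 genes on Transwell, IFIT1, IFITM3 and IFI6, against 0.736% of genes above the floor. On the plate they were 5 of 29, IFIT1, IFIT2, IFITM2, IFITM3 and HERC5, against 2.35%. IFIT1 and IFITM3 passed on both supports, against 0.504%. None was at least 1.5-fold higher, with a background of 0.357% on Transwell, 1.49% on the plate and 0.178% on both. IFIT1 differed by -0.75 log2 on Transwell and -0.74 log2 on the plate, nearly the same on both supports. IFITM3 was 1.52-fold lower in cholate on Transwell and 2.55-fold lower on the plate. IFITM2 followed it, with 1.46-fold and 2.19-fold. IFI6 was 2.22-fold lower in cholate on Transwell and 1.40-fold lower on the plate. HERC5 was at -0.24 log2 on Transwell and -0.95 log2 on the plate, where it was 1.94-fold lower. IFIT2 was at 0.03 and -0.65 log2.

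**Figure D4:**
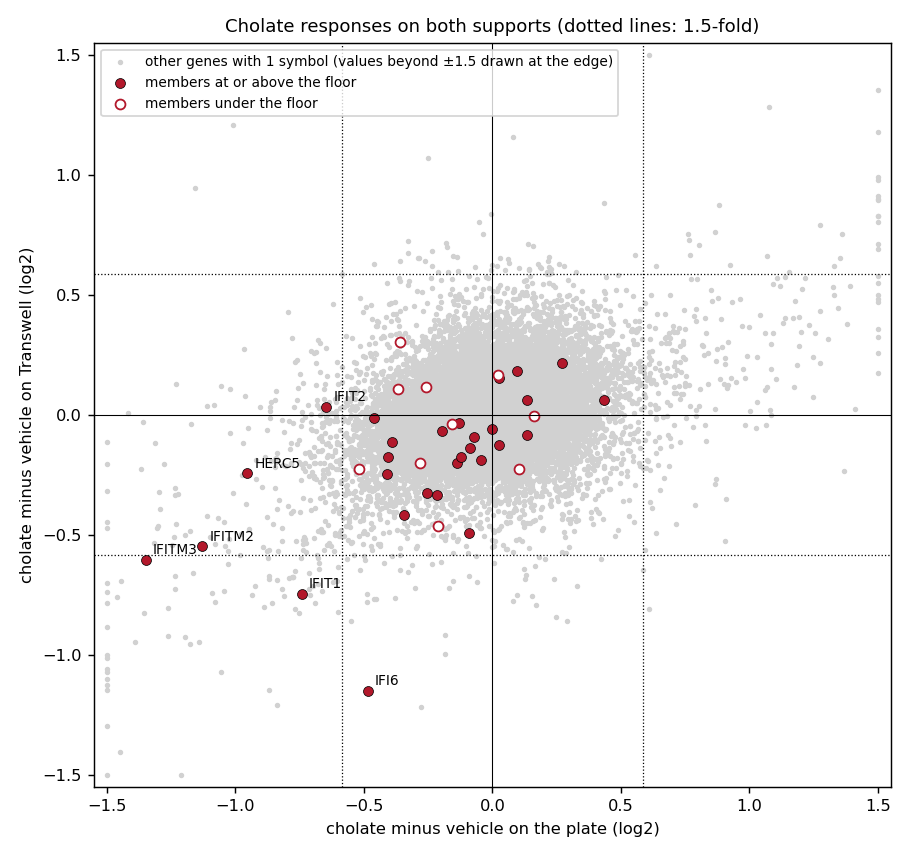
Cholate minus vehicle difference (log2) of each ISG (red, open where the mean lies under the floor) and of the other genes (grey), on the plate on the x axis and on Transwell on the y axis, with dotted lines at 1.5-fold. IFIT1 lies on the diagonal, IFI6 on the side of a larger difference on Transwell, and IFITM2, IFITM3, HERC5 and IFIT2 on the side of a larger difference on the plate.

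The 2 cholate responses were also set against each other gene by gene. The Transwell response minus the plate response had a median of -0.00 log2 over the 39 genes, against 0.02 over all genes. It ranged between -0.66 (IFI6) and 0.74 (IFITM3), with HERC5 at 0.71, IFIT2 at 0.68 and IFITM2 at 0.58. No ISG reached 1 log2 unit, against 0.372% of genes above the floor. With 1 array per condition these differences of differences were not tested.

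The array of vehicle-treated plate cells stood high for many ISGs, a pattern picked out after the values were seen. It was the highest of the 4 arrays for 29 of 39 genes, against 24.6% of all genes, and the array of Transwell cells with cholate was the lowest for 26, against 22.9%. In 10 of 39 genes the plate vehicle value exceeded the next array by more than the other 3 arrays spanned, against 6.5% of all genes. These were IFIT2, IFITM2, IFITM3, OAS1, USP18, HERC5, HERC6, MX1, SAMD9 and TAP1. Both the cholate difference on the plate and the support difference in vehicle use that array. For every gene, these 10 included, they therefore share 1 measurement. IRF9, IFITM1, OAS3, XAF1, EPSTI1, IFIT1 and IFI6 also differed at least 1.5-fold between supports in cholate, where that array has no part.

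The limma fit over all 4 arrays, with Benjamini-Hochberg adjustment over 19978 probe sets, called none of the 29 genes at an adjusted p under 0.05. It called 0.0% of probe sets for support and 0.0% for cholate. For support, IFIT1 had a limma estimate of -1.67 log2 (SE 0.0859, adjusted p 0.0858), IFITM1 -1.53 (SE 0.0879), EPSTI1 -1.39 (SE 0.0880) and IRF9 -1.28 (SE 0.0940). At an unadjusted p under 0.05, 20 of 29 were lower on Transwell and 0 higher, against 10.5% lower and 12.1% higher among all probe sets. For cholate the smallest limma adjusted p of an ISG was 0.312, for IFIT1 at -0.74 log2 (SE 0.0859). At an unadjusted p under 0.05, 9 of 29 were lower in cholate and 0 higher, against 4.51% lower and 6.31% higher. A gene's own error in this fit is the difference between its 2 cholate responses, with 1 degree of freedom, and is drawn towards that of the other probe sets by a prior of 2.83 degrees of freedom. Neither holds the spread between cultures, and a count of 0 says little at this size. The limma support call turned with the set of features: fitted on 1 probe set per gene it called 13 ISGs, all lower on Transwell, beside 11.7% of 12900 genes.

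The rest of the interferon pathway was set beside the ISGs. For the receptor genes the median over 6 of 6 was -0.02 log2 in cholate and 0.02 in vehicle for Transwell minus plate. Single genes went both ways: 2 were lower and 3 higher on Transwell in both treatments, against 32.5% and 34.2% of all genes. In any comparison 0 of the 6 were at least 1.5-fold apart. At most 4.02% of genes above the floor were so in 1 direction, so a count of 0 in 6 says little. IFNAR1 and IFNAR2, the type I receptor chains, stood at 8.31 and 8.37 and at 7.48 and 7.49 on Transwell, against 8.27 and 8.34 and 7.56 and 7.63 on the plate. IFNLR1, the specific chain of the type III receptor, stood at 7.35 and 7.27 on Transwell and 7.75 and 7.22 on the plate, with the plate cholate value alone standing high. Its partner IL10RB stood at 8.94 and 8.99, against 9.24 and 9.23. The interferon gamma receptor chains IFNGR1 and IFNGR2 stood at 10.78 and 10.71 and at 8.28 and 8.33 on Transwell, against 10.36 and 10.44 and 8.22 and 8.32 on the plate.

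Of 7 signal transducer genes measured, 6 lay above the floor. Their median Transwell minus plate difference was -0.05 log2 in cholate and -0.12 log2 in vehicle. The kinase JAK1 stood at 8.99 and 9.11 on Transwell and 9.26 and 9.23 on the plate, TYK2 at 7.44 and 7.50 and at 7.49 and 7.43, and JAK2 lay under the floor. STAT3 stood at 9.94 and 10.10, against 10.39 and 10.28. The factors IRF2, IRF3 and IRF5 stood at 8.54 and 8.30, 8.27 and 8.33, and 5.23 and 4.97 on Transwell, against 8.76 and 8.59, 8.11 and 8.26, and 5.00 and 5.05 on the plate. None was 1.5-fold apart, where at most 4.02% of genes above the floor were so in any 1 comparison and direction. Among the IRF genes measured, IRF9 alone was at least 1.5-fold apart between supports.

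Most interferon genes themselves gave little signal. Of 9 measured ligands only the type III genes IFNL1 and IFNL3 lay above the floor. IFNL1 stood at 5.13 and 5.00 on Transwell and 5.15 and 5.09 on the plate, and IFNL3 at 7.07 and 7.17, against 7.46 and 7.25. IFNB1, a type I interferon gene, was at most 2.90. Among 7 feedback inhibitors, SOCS3, which blocks JAK kinases, stood at 5.54 and 5.43 on Transwell and 6.26 and 5.55 on the plate, so it was 0.71 log2 higher in cholate on the plate and 0.12 on Transwell. Its relative SOCS1 was higher in cholate by 0.16 log2 on Transwell and 0.36 on the plate.

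Nucleic acid sensors, 13 of 13 measured and 9 above the floor, had medians of 0.09 log2 in cholate and 0.08 log2 in vehicle for Transwell minus plate. On Transwell 4 of the 13 were lower and 7 higher in both treatments, against 32.5% and 34.2% of all genes. CGAS, a sensor of cytosolic DNA, was higher in cholate by 0.36 log2 on Transwell and 0.63 on the plate. IKBKE, a kinase upstream of IRF3, was higher on Transwell by 0.56 log2 in cholate and 0.46 in vehicle. Others stood lower on Transwell: STING1, the adaptor downstream of CGAS, at -0.47 log2 in cholate and -0.26 in vehicle, EIF2AK2 (PKR), a kinase activated by double-stranded RNA, at -0.39 and -0.45, and RIGI, an RNA sensor, at -0.26 and -0.40. Antigen presentation genes, 11 of 18 measured, had medians of -0.00 and -0.00 log2. Their proteasome subunit PSMB10 was higher on Transwell by 0.13 log2 in cholate and 0.48 in vehicle.

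A list of 44 other interferon-inducible genes, 40 measured and 33 above the floor, had medians slightly below 0. Its median Transwell minus plate difference was -0.06 log2 in cholate and -0.08 log2 in vehicle. Of the 40, 19 were lower on Transwell in both treatments and 7 higher, against 32.5% and 34.2% of all genes. Cholate values lay below vehicle values in 30 of the 40 on Transwell and 25 on the plate, against 49.8% and 52.0%, and 20 were lower and 5 higher on both supports, against 30.2% and 28.2%. PLSCR1, a phospholipid scramblase with antiviral activity, stood at 8.36 and 8.45 on Transwell and 9.01 and 9.24 on the plate, and was the one gene of the list at least 1.5-fold lower in both. SERPING1, the complement C1 inhibitor, was at 0.07 log2 in cholate and -0.92 in vehicle, and GBP3 was at -0.68 log2 for cholate on the plate. Whether the ISG set and this list differ was not tested.

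**Figure D5:**
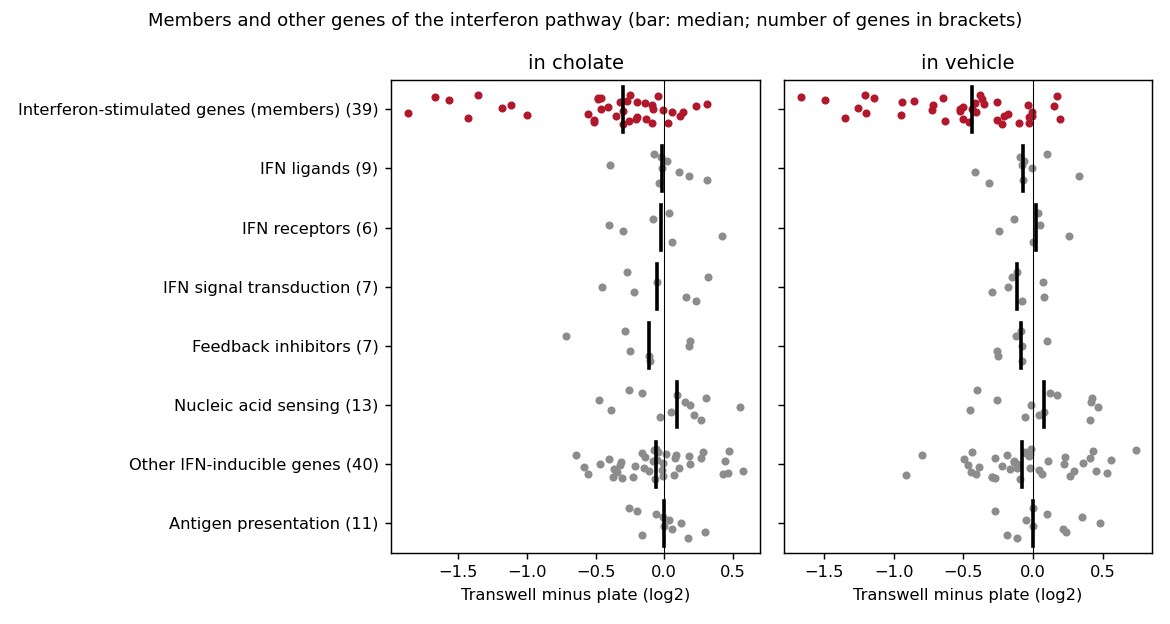
Transwell minus plate difference (log2) of each gene in the ISG set and in the other interferon pathway lists, with 1 panel per treatment, 1 point per gene and a bar at the median. The ISG medians (-0.30 in cholate, -0.44 in vehicle) lie below those of the other lists, which are between -0.12 and 0.09.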

How the data were processed

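RNA of Caco-2 cells was profiled on 4 arrays, 1 per condition. The authors deposited log2 intensities. The submitters' processing notes name RMA, which subtracts background, normalizes between arrays and combines probes into probe sets. The sources used here state no version and no probe set definition. Such normalization hides a shift shared by most transcripts and compresses differences near background.

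Differences between arrays were computed from these values with Python 3.11.15 and pandas 2.3.3. Gene names came from the platform annotation, checked against RefSeq (GRCh38.p14). Of 33297 probe sets, 19460 had 1 symbol, and the probe set with the highest mean stood for its gene, which gave 18417 genes. A floor was set at the 40th percentile of the mean over the 4 arrays. Genes 1.5-fold apart were counted above it. The limma 3.58.1 test in R 4.3.3 (lmFit and eBayes, support and treatment as additive terms, 2-sided, Benjamini-Hochberg) ran over the 19978 probe sets above the floor and was run on simulated data, where it returned the size of the shifts put in but called none of them. It has 1 residual degree of freedom, the difference between the 2 cholate responses, so its errors do not measure the spread between cultures. With 1 array per condition, single differences have no test, and the number of arrays limits precision.

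The gene set, role groups, pathway lists and motifs were chosen with earlier results of these data known. Genes were named when at least 1.5-fold apart in any comparison, or among the 5 highest or 5 lowest means, and up to 3 per list by the largest difference. Alternatives were median centring, quantile normalization, cyclic loess, averaged probe sets, other floors and folds, a limma trend and a limma fit on 1 probe set per gene. No batch is given in the labels. STAT2 is not analysed here.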

Additional observations from a re-analysis of the deposited data

Results flagged for a closer look

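In 3 of the 29 ISGs at or above the floor the cholate difference ran in opposite directions on the 2 supports. Cholate values lay below vehicle values on Transwell and plate alike in only 30.2% of all genes, and above them in 28.2%. Opposite directions were therefore not unusual among genes. IFIT2 was at 0.0342 log2 on Transwell and -0.65 log2 on the plate. IRF9 was at -0.13 log2 on Transwell and 0.02 log2 on the plate, and IRF1 at -0.0864 and 0.13 log2. In 2 of the 29 the Transwell minus plate difference ran in opposite directions in the 2 treatments. Of all genes, only 32.5% were lower and 34.2% higher on Transwell in both treatments. IRF1 was at -0.0453 log2 in cholate and 0.17 log2 in vehicle, and TAP1 at 0.0305 and -0.10 log2. With 1 array per condition none of these 5 differences between groups was tested, and apart from IFIT2 on the plate the values were under 0.2 log2.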

How the results depend on the processing

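Under median centring, quantile normalization and cyclic loess the median difference of all genes stayed within 0.1 log2 of 0. The furthest was -0.08 for cholate on the plate under centring. Under each of these 3, 3 ISGs instead of 1 were higher on Transwell in both treatments. That count has no share over all genes beside it under the same settings. With the floor at the 60th percentile, 22 ISGs stayed, and their median Transwell minus plate difference in cholate became -0.38 log2. Of the 22, 20 were lower and 0 higher on Transwell in both treatments, and 2 were higher in cholate on both supports. These counts by direction have no share over all genes at that floor. At least 1.5-fold lower in cholate on the plate were 3, against 1.89% of genes above that floor. At 1.3-fold in place of 1.5-fold, 14 ISGs were lower on Transwell in cholate (9.19% of genes above the floor) and 19 in vehicle (7.95%), 6 were lower in cholate on Transwell (2.36%) and 10 on the plate (7.28%), and 1 was higher on the plate (3.78%). At 2-fold, 6 were lower on Transwell in vehicle (0.659%), and 1 was lower in cholate on Transwell (0.116%) and 2 on the plate (0.496%). For support, limma called 5 ISGs with an intensity trend (1.47% of probe sets) and 13 when fitted on 1 probe set per gene (11.7% of genes), against 0, and the cause was not tested. The 27 single-gene differences of at least 1.5-fold kept their direction under centring, quantile normalization and loess. They were picked for their size and lie far from 0 beside such shifts, so a reversal was hardly possible. Averaging probe sets could not change them, since TAP1 alone of the ISGs had more than 1 probe set. No result reversed. No paired analysis was possible because each condition has 1 array and the labels carry no replicate numbers, so leaving out a replicate was also not possible. Signal near the floor limits the 10 weakest ISGs.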

Other observations

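CXCL10, an interferon-inducible chemokine outside the ISG set, lay under the floor but had 1 array apart from the rest: 3.89 on Transwell with cholate and 4.89 with vehicle, against 3.97 on the plate with cholate and 4.15 with vehicle. On probe sets shared with paralogs, which were not counted, the signal for GBP1 with GBP1P1 and GBP3 was 7.09 and 7.28 on Transwell and 7.03 and 7.57 on the plate. The signal shared by USP18 and USP41P was 6.90 and 7.23 on Transwell, against 7.51 and 7.77 on the plate. Its Transwell minus plate difference was -0.60 log2 in cholate and -0.54 in vehicle. The probe set of USP18 alone gave -0.08 and -0.53 log2, so these probe sets differ in cholate.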
